A study of Mus musculus with 12 samples.

Results

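The Dlk1-Dio3 region of mouse chromosome 12 is an imprinted domain that carries one of the largest groups of mammalian miRNAs. The results below concern 6 of its mature miRNAs, out of 1929 in the deposited table. They are mmu-miR-673-5p and mmu-miR-673-3p, mmu-miR-337-5p, mmu-miR-540-3p and mmu-miR-665-3p, which lie ahead of the miRNAs antisense to the gene Rtl1, and mmu-miR-370-3p, which lies in the non-coding gene Rian. The prefix mmu, for mouse, is left out below. They were chosen by name and position with earlier results of these data known, and all 6 were found in the table. Some other miRNAs of the same stretch, such as miR-341-3p of Rian, are not among the 6. Livers of C57BL/6 mice were compared in 2 groups of 6 small RNA libraries each. In the PZH group, mice received repeated intraperitoneal injections of carbon tetrachloride (CCl4), a liver toxin that produces fibrosis, and a daily intragastric dose of PZH, the Chinese medicine Pien Tze Huang. In the water group, mice received the same CCl4 injections and a daily intragastric dose of double distilled water. All 12 libraries therefore come from CCl4-treated mice, and healthy livers were not analysed here. The labels used give no age, no sex, no PZH dose and no measure of fibrosis for single mice. They also do not say in words that each library is a separate mouse. The p-values therefore set the difference between groups against the spread between these samples, which may not be the spread between mice.

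On the maternal chromosome the domain yields the long non-coding RNAs Meg3, anti-Rtl1, Rian and Mirg, and miRNAs and small nucleolar RNAs are processed from them. On the paternal chromosome the protein-coding genes Dlk1, Rtl1 and Dio3 are expressed. These miRNAs are abundant in the embryo, placenta and brain and low in adult liver. In rats with CCl4 injury, miR-370 has been described as a repressor of Smoothened in hepatic stellate cells, and in human hepatoma cells it targets CPT1A, an enzyme of fatty acid oxidation.

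The mature sequences are shown because the seed, bases 2 to 8, largely sets which messages a miRNA can bind. They are written 5′ to 3′ as in RefSeq (GRCm38.p6), with the seed in capitals.
miR-673-5p: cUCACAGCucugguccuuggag
miR-673-3p: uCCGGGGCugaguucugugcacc
miR-337-5p: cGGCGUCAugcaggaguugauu
miR-540-3p: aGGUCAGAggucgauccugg
miR-665-3p: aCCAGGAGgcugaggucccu
miR-370-3p: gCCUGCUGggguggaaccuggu
The 6 seeds all differ, so the set is a neighbourhood on the chromosome and not a seed family. The miRNAs are 20 to 23 bases long, with a GC content from 54.5% for miR-337-5p to 68.2% for miR-370-3p. Among the 1647 names of the table with a RefSeq mature sequence, only miR-6985-3p shares the seed of miR-673-5p and only miR-6915-5p that of miR-540-3p. The other 4 seeds are shared with no other name.

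The hairpins are shown because most of them release 1 arm far more than the other, and both arms are in capitals.
Mir673: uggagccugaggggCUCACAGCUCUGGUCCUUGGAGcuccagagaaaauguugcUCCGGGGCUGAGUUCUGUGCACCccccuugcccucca
Mir337: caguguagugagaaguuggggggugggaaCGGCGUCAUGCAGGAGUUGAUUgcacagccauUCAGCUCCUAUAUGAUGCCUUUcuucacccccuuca
Mir540: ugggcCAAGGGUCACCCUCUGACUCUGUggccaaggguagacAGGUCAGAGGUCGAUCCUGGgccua
Mir665: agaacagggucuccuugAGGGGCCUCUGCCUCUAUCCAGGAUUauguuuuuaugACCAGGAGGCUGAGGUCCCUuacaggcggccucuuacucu
Mir370: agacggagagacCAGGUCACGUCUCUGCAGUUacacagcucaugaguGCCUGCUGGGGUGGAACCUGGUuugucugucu
All 5 hairpins lie on the plus strand of GRCm38. Mir673 is at chr12:109571990-109572080, 264 bases past the annotated end of Meg3 and within no gene of the GENCODE annotation used. Mir337 (chr12:109585789-109585885), Mir540 (chr12:109586080-109586146) and Mir665 (chr12:109586314-109586407) sit together within 619 bases, also in no annotated long gene, with Mir665 ending 2786 bases before the annotated Rtl1 gene, which runs on the opposite strand. Mir370 is at chr12:109618258-109618336, in an intron of Rian. The 5 hairpins span 46347 bases.

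The window of 300 bases around the first Meg3 start in RefSeq is shown because the maternal non-coding RNAs of the domain are thought to be transcribed largely from there. It runs on the plus strand at chr12:109540746-109541045, from 250 bases before to 50 bases after the start.
Meg3 promoter: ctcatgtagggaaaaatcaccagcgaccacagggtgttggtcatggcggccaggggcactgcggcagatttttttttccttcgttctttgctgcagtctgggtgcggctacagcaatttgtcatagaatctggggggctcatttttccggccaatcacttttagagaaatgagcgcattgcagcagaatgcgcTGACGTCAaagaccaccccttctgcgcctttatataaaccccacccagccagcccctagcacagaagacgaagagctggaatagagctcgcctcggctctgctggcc
The capitals mark TGACGTCA, the palindromic cAMP response element, at base 194 of the window. These letters occur in 1.79% of the 32851 promoter windows in the RefSeq table. The letters TATAAA, searched on both strands, matched at 2 overlapping positions and occur in 13.6% of the windows. The match of letters is a description and not evidence of binding.

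Levels are given as CPM, the counts of a library scaled to a common total, with TMM factors that allow for differences in library composition. The library totals ranged from 4961913 to 20211784 counts. The table holds no cell with the value 1, so detection here means at least 2 counts. The hepatocyte marker miR-122-5p held 90316 to 126884 CPM with PZH and 95293 to 116004 CPM with water. Water replicate 2, the deepest library, stood apart in markers of pancreas and muscle but not of neural tissue. Its 4 pancreas miRNAs summed to 28.7 CPM, against 3.38 to 6.71 CPM with PZH and 3.37 to 9.19 CPM in the other water libraries. Its 3 muscle miRNAs summed to 89.2 CPM, against 10.7 to 43.1 CPM with PZH and 13.7 to 26.6 CPM in the other water libraries. Its neural miRNAs summed to 48.9 CPM, against 42.6 to 46.8 CPM with PZH and 44.0 to 49.8 CPM in the other water libraries. Of the marker lists, 1 of 6 tested hepatocyte (miR-802-5p), 1 of 5 leukocyte (miR-223-3p), 2 of 2 endothelial (both arms of miR-126a) and 1 of 1 pancreas miRNAs (miR-375-3p) fell, and none of 5 mesenchymal, 2 muscle or 3 neural miRNAs changed (edgeR adjusted p under 0.05). No listed marker was at 0 in all libraries. The part of cell composition in the results below was not tested.

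With PZH, miR-370-3p, miR-540-3p, miR-337-5p and miR-665-3p rose, while the arms of miR-673 gave higher means that did not pass the test. The differences were about 4-fold for miR-370-3p and miR-540-3p and a little over 2-fold for miR-337-5p and miR-665-3p. Of 607 miRNAs that passed the filter on low counts, edgeR called 60, or 9.88%, higher with PZH and 69, or 11.4%, lower, which makes 21.3% in either direction. The 6 described here include 4 of the higher and none of the lower calls. Every PZH library lay above every water library for miR-370-3p and miR-337-5p, which held for 31, or 5.11%, of the 607. Among these 31 were 20 of the 46 other tested miRNAs placed in the domain by coordinates, so this trait is shared with the domain. All 6 passed the filter, but miR-540-3p and, less so, miR-673-5p passed through the group in which they were high. The threshold was 1.10 CPM, which edgeR read here before TMM scaling. It was reached by 6 of 6 PZH and 2 of 6 water libraries for miR-540-3p. For miR-673-5p it was reached by 6 of 6 PZH and 4 of 6 water libraries. In whole liver, a change in the number of cells of a type and a change in RNA per cell cannot be told apart. The domain was known to be higher with PZH when these miRNAs were chosen, so their number is a description.

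Of the set, miR-337-5p was the most abundant miRNA in each of the 12 libraries and ranked 256 of 607 by mean level. Its levels with PZH were 36.6, 26.6, 35.8, 28.8, 58.2 and 64.7 CPM for replicates 1 to 6, against 15.7, 21.2, 17.9, 21.0, 12.3 and 13.6 CPM with water. PZH replicates 5 and 6 were highest, and the lowest PZH library was above the highest water library. It averaged 41.8 ± 15.8 CPM with PZH and 17.0 ± 3.74 CPM with water (SD, n = 6 each), a log2 fold change of 1.30 (SE 0.23, edgeR adjusted p = 0.000941). Its spread was well above counting error, with a coefficient of variation of 37.9% with PZH and 22.05% with water. Counting at the mean count gives 5.25% and 7.16%.

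The level of miR-370-3p, the member with a described role in stellate cells and lipid metabolism, was 15.5, 13.5, 14.8, 9.55, 18.1 and 24.0 CPM in PZH replicates 1 to 6, against 3.29, 5.99, 5.89, 2.76, 1.95 and 2.60 CPM in water replicates 1 to 6. The groups did not overlap, and PZH replicate 4 was the lowest of its group. Its log2 fold change was 2.06 (SE 0.29, 95% interval 1.45 to 2.67, edgeR adjusted p = 0.000133), the third highest of the 607. It made up 20.5% ± 2.35 of the summed counts of the 6 miRNAs with PZH and 12.4% ± 3.50 with water (SD, n = 6 each).

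For miR-540-3p the levels were 4.0, 4.75, 5.28, 1.14, 9.12 and 10.02 CPM with PZH, against 0.548, 3.02, 0.916, 1.11, 0.798 and 1.40 CPM with water. PZH replicate 4 lay among the water libraries, and water replicate 2 was well above the other water libraries, while 5 of 6 PZH libraries exceeded every water library. Behind these levels stand 11 to 83 counts with PZH and 7 to 58 with water. The log2 fold change was 2.07 (SE 0.48, 95% interval 1.05 to 3.10, edgeR adjusted p = 0.00610), second of the 607, after that of miR-543-3p of the same domain. Without water replicate 2 it was 2.64 (edgeR adjusted p = 0.00128).

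In the neighbouring hairpin, miR-665-3p stood at 10.2, 7.52, 7.16, 6.33, 19.1 and 14.7 CPM with PZH, against 8.76, 7.76, 4.84, 3.76, 2.93 and 1.40 CPM with water. The groups overlapped: 3 of 6 PZH libraries were above the highest water library, and the lowest PZH library was above 4 of 6 water libraries. Its log2 fold change of 1.09 (SE 0.37, 95% interval 0.29 to 1.88) lay at the threshold (edgeR adjusted p = 0.0494). The call ended with limma-voom (adjusted p = 0.0721). It also ended when PZH replicate 1, 5 or 6 or water replicate 3, 4, 5 or 6 was left out, with log2 fold changes of 1.10, 0.87, 0.98, 1.06, 1.04, 0.97 and 0.92 in that order.

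Both arms of Mir673, the hairpin nearest to Meg3, were low. The level of miR-673-5p was 1.39, 2.66, 4.52, 1.45, 2.81 and 4.47 CPM with PZH, against 0.548, 2.19, 1.57, 1.77, 1.60 and 0 CPM with water. In water replicate 6, the shallowest library, it was listed at 0. A true count of 0 allows up to 0.605 CPM before TMM scaling. As the table holds no 1, a listed 0 may also stand for 1 read, for which the limit is higher. For miR-673-5p the log2 fold change was 1.10, with a 95% interval from 0.11 to 2.10 and no call after adjustment (edgeR adjusted p = 0.112, unadjusted p = 0.0321). Of all 607, 15.3% were higher with an unadjusted edgeR p under 0.05. The other arm, miR-673-3p, had 3.69, 2.43, 1.51, 0.623, 1.80 and 2.41 CPM with PZH, against 1.10, 2.40, 1.31, 1.66, 1.06 and 0.799 CPM with water. The groups overlapped widely, and the log2 fold change of 0.50 had a 95% interval from -0.30 to 1.30 (edgeR adjusted p = 0.420). That interval holds both no change and a change as large as that of miR-665-3p. The counts behind it were 6 to 24 per PZH library and 4 to 46 per water library. Its coefficient of variation was 49.8% with PZH and 41.2% with water, where counting at the mean count gives 24.1% in each group. As the libraries differ in depth, 24.1% is a low estimate of counting error. For miR-673-3p the log2 fold change was 0.27 without PZH replicate 1 and 0.76 without water replicate 2, with no call in either case (edgeR adjusted p = 0.691 and 0.198). Without water replicate 2, the library with the high pancreas and muscle markers, the log2 fold changes were 2.27 for miR-370-3p, 1.37 for miR-337-5p, 1.26 for miR-665-3p, 1.34 for miR-673-5p and 0.76 for miR-673-3p. No call among these 5 was gained or lost (edgeR adjusted p = 0.0297 for miR-665-3p, 0.0740 for miR-673-5p and 0.198 for miR-673-3p).

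**Figure D1:**
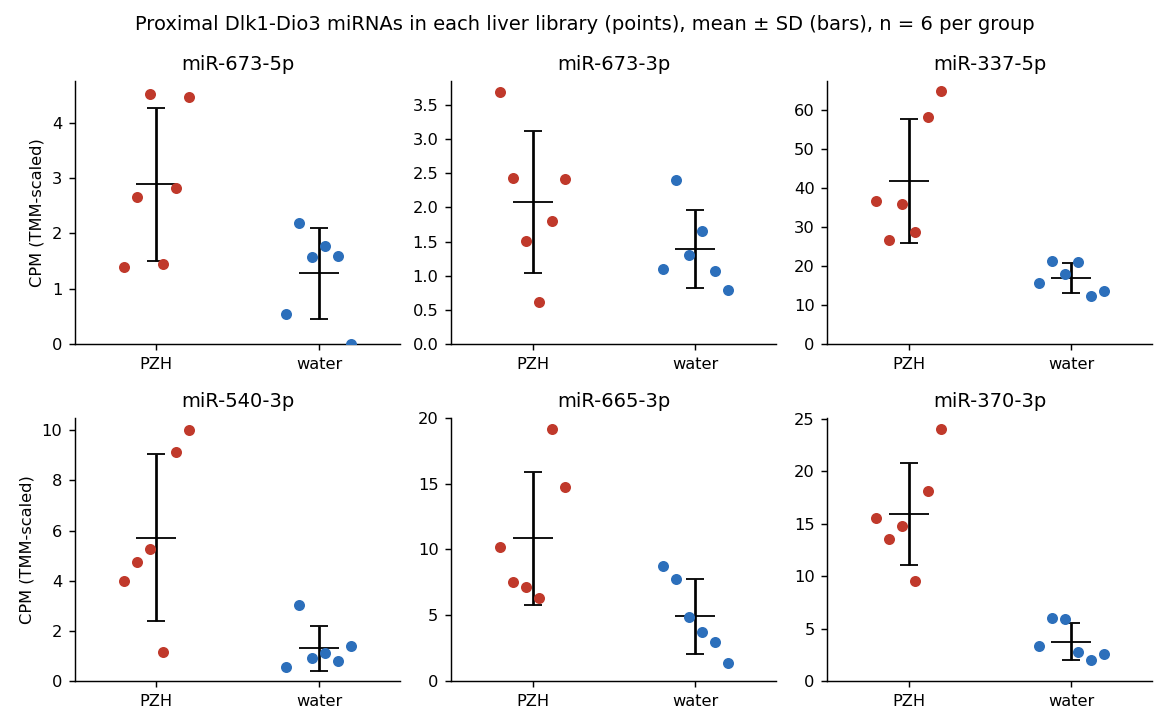
Level of each of the 6 miRNAs in CPM after TMM scaling (vertical axes from 0, each with its own range), in PZH libraries (left, red) and water libraries (right, blue), 1 point a library, with mean and SD bars (n = 6 per group). The groups are apart for miR-337-5p and miR-370-3p, and the lowest red point of miR-540-3p, at 1.14 CPM, is PZH replicate 4.

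Single libraries tended to be high or low in several of the 6 miRNAs. Within the PZH group, replicate 4 was lowest for 4 of the 6 and replicate 6 was highest for 3. Within the water group, replicate 2 was highest for 5 of the 6 and replicate 6 was lowest for 3. The sum over the 6 miRNAs was 47.9 to 120 CPM with PZH and 19.8 to 42.6 CPM with water, so the lowest PZH sum, in replicate 4, was above the highest water sum, in replicate 2. As a share of all counts of the domain, the 6 miRNAs held 3.46% ± 0.419 with PZH and 2.84% ± 0.426 with water (SD, n = 6 each), and the ranges of 2.96% to 4.01% and 2.15% to 3.44% overlapped. Values of CPM count whole miRNAs of nearly equal length, but differences between sequences in adapter ligation were not corrected.

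The rest of the domain was read from the same fit. Of 8 tested miRNAs in the anti-Rtl1 core, which are made antisense to Rtl1 and can cleave its message, 4 rose and none fell, with a median log2 fold change of 1.07. Of 40 tested miRNAs on the Mirg side, 30 rose and none fell, with a median of 1.14, while the median over all 607 was -0.03. Those with the smallest p in these lists were miR-434-5p and miR-127-3p of the core (log2 fold changes 1.40 and 1.11) and miR-409-5p and miR-541-5p of the Mirg side (1.42 and 1.60), with edgeR adjusted p of 0.000923, 0.00241, 2.71e-05 and 5.90e-05. A further proximal miRNA of Rian, miR-341-3p, averaged 7.49 ± 3.70 CPM with PZH and 2.86 ± 0.928 CPM with water (SD, n = 6 each; log2 fold change 1.36, edgeR adjusted p = 0.00603). The other 8 proximal names listed did not pass the filter.

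**Figure D2:**
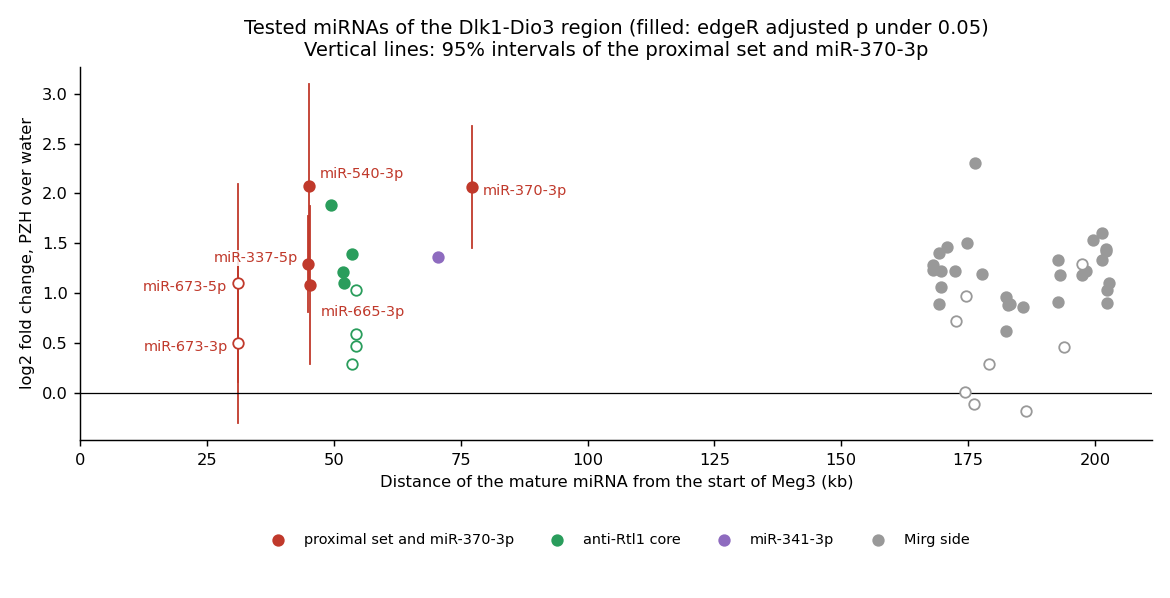
The log2 fold change of PZH over water (vertical axis) for tested miRNAs of the domain against their distance in kb from the start of Meg3 (horizontal axis), with the 6 miRNAs described here in red with 95% intervals, 8 of the anti-Rtl1 core in green, miR-341-3p in purple and 37 of the 40 of the Mirg side in grey. Filled points passed an edgeR adjusted p of 0.05, and miR-540-3p and miR-370-3p, at 2.07 and 2.06, are the highest of the red points.

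Whether a miRNA of the set differed between groups by more than its neighbours was asked within each library, as its log2 CPM minus the mean log2 CPM of a list. Against the anti-Rtl1 core, miR-370-3p stood at -0.15 ± 0.23 with PZH and at -1.27 ± 0.34 with water (SD, n = 6 each). The PZH values ran from -0.55 to 0.06 and the water values from -1.56 to -0.69, with no overlap. The difference of 1.12 gave a two-sided exact permutation p = 0.00216, the smallest this test can give, and 0.0130 after Benjamini-Hochberg adjustment over the 12 comparisons made. Against the Mirg side it stood at 0.40 ± 0.20 with PZH and at -0.67 ± 0.48 with water, a difference of 1.07 with the same exact p and adjusted p. Here the groups did not overlap but nearly met, with a lowest PZH value of 0.056 and a highest water value of 0.015. The increase of miR-370-3p was thus larger than the mean of either list, but not than every single miRNA in them. The largest log2 fold changes were 1.88 in the core (miR-431-5p) and 2.30 on the Mirg side (miR-543-3p), against 2.06. The set was chosen with earlier results of these data known, so these p-values are descriptive. Both adjusted exact p of miR-370-3p were 0.0519 when PZH replicate 2 or PZH replicate 6 was left out. The differences were then 1.08 and 1.10 against the core and 1.04 and 1.03 against the Mirg side.

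None of the other 10 comparisons passed the adjustment. For miR-540-3p the difference was 0.92 against the core (two-sided exact p = 0.0368, adjusted 0.110) and 0.87 against the Mirg side (exact p = 0.0758, adjusted 0.152). Without PZH replicate 4, its low library, these were 1.18 and 1.18, with an adjusted exact p of 0.0260 each. For miR-337-5p the differences were 0.27 and 0.22, with adjusted exact p of 0.110 and 0.152, and without water replicate 4 the first was 0.35 (adjusted exact p = 0.0173). For miR-665-3p they were 0.24 and 0.20, and for miR-673-5p 0.33 and 0.28. Without water replicate 6 the values of miR-673-5p were -0.11 and -0.19 and those of miR-665-3p were 0.011 and -0.06. For miR-673-3p the differences were -0.53 and -0.57, both negative, with adjusted exact p of 0.195 and 0.186.

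**Figure D3:**
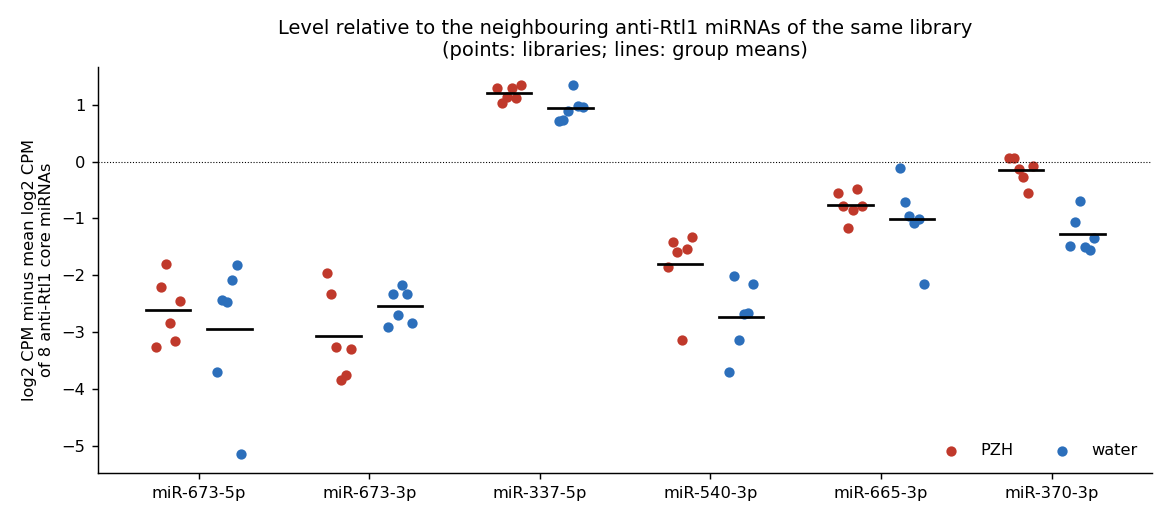
Level of each of the 6 miRNAs relative to 8 anti-Rtl1 core miRNAs of the same library (log2 CPM minus their mean log2 CPM, vertical axis), with PZH libraries (red) left of water libraries (blue) and lines at the group means. For miR-370-3p all 6 PZH points lie above all 6 water points, while the groups overlap for the other 5.

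The patterns most like each of the 6 over the 12 libraries were found by the root mean square difference of log2 CPM, each centred on its own mean, among 606 other tested miRNAs. For miR-337-5p they were miR-134-5p, miR-154-3p and miR-410-3p of the Mirg side, at 0.19, 0.19 and 0.20, where the median of all was 0.82. For miR-370-3p they were miR-541-5p, miR-434-5p and miR-409-3p at 0.38, 0.42 and 0.45, and for miR-665-3p miR-382-5p, miR-409-3p and miR-329-5p at 0.39, 0.45 and 0.48. The nearest to miR-540-3p were miR-341-3p, miR-370-3p and miR-434-5p at 0.60, 0.63 and 0.63. All of these lie in the domain. Besides the 6, 46 tested miRNAs were placed in the domain by coordinates. As the centring was over all 12 libraries, the distance includes the difference between groups. A near pattern is therefore partly one with a like fold change. For miR-673-5p the nearest was miR-3071-3p of the domain at 0.52, followed by miR-497b and miR-150-3p from elsewhere at 0.62 and 0.75. The nearest to miR-673-3p were miR-25-5p, miR-1943-5p and miR-1191b-5p, none of the domain, at 0.47 each.

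Of the 4 single-arm members, miR-337-5p, miR-370-3p and miR-665-3p had partner arms with far lower sums in both groups. For miR-540-3p this held with PZH only. With water, miR-540-5p had more counts than miR-540-3p in replicate 1 (10 against 8) and replicate 3 (11 against 7). None of the 4 partner arms passed the filter. Summed over 6 libraries, Mir337 gave 2178 counts of the 5p arm and 38 of the 3p arm with PZH, against 1170 and 32 with water. From Mir370 came 827 counts of 3p and 9 of 5p with PZH, against 268 and 0 with water. For Mir540 the sums were 298 of 3p and 30 of 5p with PZH, against 99 and 52 with water. Mir665 gave 560 of 3p and 39 of 5p with PZH, against 388 and 51 with water. These are raw sums, and the totals of the libraries differ between the groups. After scaling, miR-665-5p averaged 0.733 ± 0.505 CPM with PZH and 0.704 ± 0.368 CPM with water (SD, n = 6 each), so its level did not differ beyond the spread between libraries.

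The 3p share of Mir540 was 89.7, 89.1, 91.8, 61.1, 95.3 and 93.3% with PZH, against 44.4, 75.3, 38.9, 71.4, 60.0 and 77.8% with water. All PZH libraries except replicate 4 were above every water library. The level of miR-540-5p was 0.569 ± 0.130 CPM with PZH and 0.748 ± 0.401 CPM with water (SD, n = 6 each), a difference smaller than the spread between water libraries. None of the 5 hairpins reached a mean of 20 counts in both arms, the minimum set for a test of the arm ratio, in which 11 of 137 hairpins (8.03%) were called. At a mean of 5 counts, the log2 ratio of 5p to 3p of Mir540 differed by -2.21 between PZH and water (95% interval -3.46 to -0.96), which did not pass adjustment over 210 hairpins (limma adjusted p = 0.0613, unadjusted 0.00234). At that minimum 1.90% of hairpins were called, and 0 of the 4 hairpins of the set. The ratio of Mir665 differed by -1.25 (limma adjusted p = 0.161, unadjusted 0.0268), and those of Mir337 and Mir673 by 0.82 and 0.90 (limma adjusted p = 0.325 each). Mir673 was the only hairpin here with arms of like abundance in both groups. It gave 156 counts of 5p and 103 of 3p with PZH, against 96 and 103 with water. Counts of the minor arms lay near the lowest value the table reports, so these ratios carry large counting error.

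**Figure D4:**
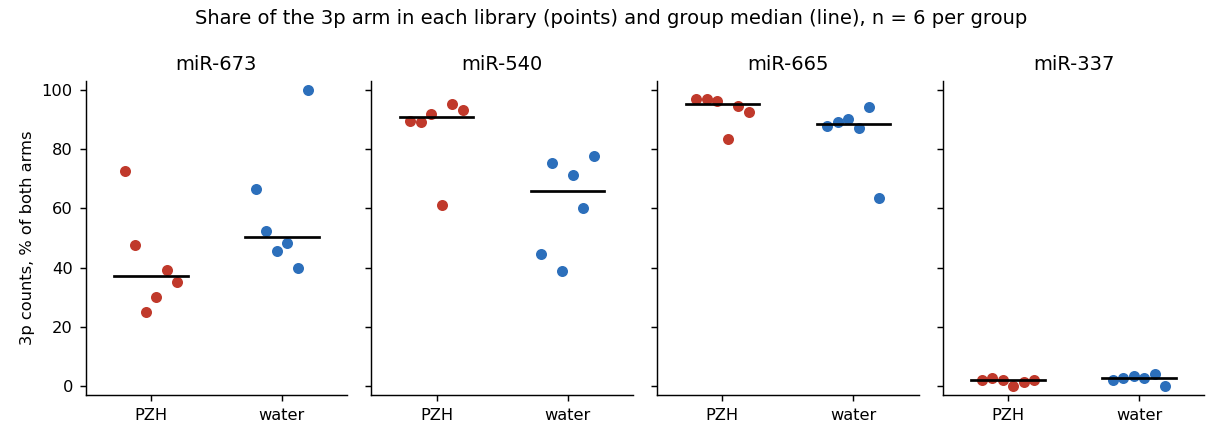
Counts of the 3p arm as a percent of both arms (vertical axis) in PZH (left, red) and water (right, blue) libraries for 4 hairpins, 1 point a library, with lines at the medians. For miR-540 the medians are 90.7% with PZH and 65.7% with water, and miR-337 stays below 4.14% in all libraries.

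On the opposite strand of Mir337 lies Mir3544, whose 3p arm covers 17 bases of miR-337-5p. It is shown with its seed in capitals because its letters are the complement of those bases.
miR-3544-3p: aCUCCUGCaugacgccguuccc
It had 19 counts with PZH and 4 with water in all, and was at 0 in 2 PZH and 4 water libraries. Whether the counting used strand is not given in the sources used here, but the level of miR-337-5p was higher by far in every library. The names that share a seed with the set did not pass the filter: miR-6985-3p lay between 0 and 1.09 CPM with PZH and between 0.262 and 1.60 CPM with water, and miR-6915-5p between 0.471 and 1.69 CPM with PZH and between 0 and 1.18 CPM with water.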

How the data were processed

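Small RNA from 12 liver tissue samples was sequenced with the TruSeq Small RNA kit after Trizol extraction, per the labels. The authors deposited raw counts per mature miRNA, with no normalization. The submitters' processing notes name cutadapt, FastQC, BWA, DESeq2 and GRCm38. Their versions and settings, the counting tool, the miRNA annotation and the treatment of multiply matching reads were not stated in these notes. The counts were compared by edgeR 4.0.16 (R 4.3.3), with its quasi-likelihood fit, TMM factors and filterByExpr at its defaults, run on the whole table with Benjamini-Hochberg adjustment over 607 miRNAs. SEs and intervals were derived from the edgeR statistic. Levels relative to neighbours used log2 CPM with a prior count of 2 and two-sided exact permutation tests over 924 assignments. Arm ratios used limma 3.58.1 on log2 counts with a pseudocount of 1. Alternatives used RLE and total-count scaling, other filters, DESeq2 1.42.0, limma-voom, a replicate block and leaving out each library. Scripts were tested on simulated data. Sequences and positions come from RefSeq GRCm38.p6 and GENCODE M21, which is on GRCm38.

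All 6 members, their partner arms, the 3 nearest patterns of each, 2 miRNAs with the smallest p of the core and Mirg lists, and seed sharers were named by rule; miR-543-3p, miR-341-3p and miR-3544-3p were named after their values were seen. The members and lists were chosen with earlier results of these data known. Same-numbered libraries of the groups correlated between -0.15 and 0.08 after centring on group means, so the numbers were not used as pairs. No 2 libraries of a group were identical, and all 30 pairs differed beyond sampling noise. Intervals and limits for a count of 0 (3 counts of the library total) cover counting error only, as the reads carry no molecular identifiers.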

Additional observations from a re-analysis of the deposited data

Results flagged for a closer look

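In the water group, replicate 2 held 3.02 CPM of miR-540-3p, far from the next water library at 1.40 CPM. The gap was 0.656 of the range of the group, above the critical value of 0.625 for 6 samples. Chance flags about 1 in 20 groups, and 12 groups were examined (6 miRNAs in 2 groups), with this 1 case. The same library had the highest pancreas and muscle marker sums, and the part of this in its miR-540-3p level was not tested. Without it the log2 fold change of miR-540-3p was 2.64.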

How the results depend on the processing

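Over 19 alternatives the number of called miRNAs lay between 94 and 144, against 129. All log2 fold changes of the 6 miRNAs stayed positive. The calls of miR-370-3p (1.91 to 2.27), miR-337-5p (1.13 to 1.41) and miR-540-3p (1.84 to 2.64) held wherever they were tested, and the lack of a call for both arms of miR-673 likewise. Under the filter of 10 CPM in 6 libraries only miR-337-5p was tested, so 1 of the 6 was called, and 19 other miRNAs of the domain against 35. With a replicate block, 114 miRNAs were called, 31 of the domain and 3 of the 6, without miR-665-3p (adjusted p = 0.102); the block changed no other call of the 6. Of water replicates only replicate 1 correlated best with its own number among PZH libraries. In the comparisons with neighbours, miR-370-3p missed the threshold with the replicate block (1.12 against the core and 1.07 against the Mirg side, exact adjusted p = 0.188 each), where 6 pairs allow no p below 0.0312. Leaving out 1 library gave 1.06 to 1.24 and 0.996 to 1.21 for miR-370-3p, 0.72 to 1.18 and 0.67 to 1.18 for miR-540-3p, 0.22 to 0.35 for miR-337-5p against the core, -0.11 to 0.55 and -0.19 to 0.49 for miR-673-5p, and 0.011 to 0.42 and -0.062 to 0.37 for miR-665-3p. The hairpins of this set were not among the 137 tested at a mean of 20 counts in both arms. Arm ratios were called for 11 of these 137 hairpins (8.03%), and for 4 at a mean of 5 counts and 6 with the replicate block. With 1 library left out the number was 3 to 14, namely 5 without PZH replicate 1 or 5, 4 without PZH replicate 6, 3 without water replicate 1 or 4, 4 without water replicate 3 and 5 without water replicate 5; the cause was not tested. The miR-673 arms had 0 to 48 counts per library. Their coefficients of variation were above the values from counting at the mean count in both groups, which are low estimates.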

Other observations

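Of the proximal names that did not pass the filter, miR-493-3p, from a hairpin between Mir673 and Mir337, had 5 to 12 counts per PZH library and 2 to 23 per water library, with 1.04 ± 0.385 CPM with PZH and 0.855 ± 0.266 CPM with water (SD, n = 6 each). The level of miR-3070-5p was 0.536 ± 0.223 CPM with PZH and 0.826 ± 0.412 CPM with water, and that of miR-1188-3p, of Rian, 0.942 ± 0.987 CPM with PZH and 1.13 ± 0.607 CPM with water (SD, n = 6 each). The ranges of both groups overlapped for each of the 3, and no test was run on them.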
